A study of Mus musculus with 37 samples.

Results

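The epiblast and the visceral endoderm of mouse embryos at embryonic day 6.5 were compared across all genes, using 8 of the 37 libraries of the series, which were chosen by their labelled tissue. Of these, 4 were labelled epiblast (EPI) and 4 visceral endoderm (VE). In each lineage 2 libraries came from the control cross, Bap1flox/flox mothers mated with a PWK male, and 2 from the maternal knockout cross, Gdf9-iCre, Bap1flox/flox mothers mated with a PWK male. All 8 libraries therefore shared a PWK father and a mother with floxed Bap1 alleles. The Gdf9 promoter drives Cre recombinase in growing oocytes, so the deletion is made in the egg, and the embryo still receives a Bap1 allele from its father. Bap1 encodes a deubiquitinase that removes ubiquitin from histone H2A. The labels do not say whether the libraries of a group came from different litters, or how many embryos a library holds, so the p-values measure the spread between these samples, which may be technical in part. The series also holds 3 libraries of extraembryonic ectoderm (EXE) of the same day, 1 control and 2 maternal knockout, whose values are given beside some genes without a test.

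The epiblast is the pluripotent cell layer that gives rise to the body of the embryo, kept in its state by transcription factors such as Pou5f1, Sox2 and Nanog and by Nodal and FGF signals. The visceral endoderm is the epithelium that surrounds it. It takes up maternal nutrients through apical receptors, breaks them down in large lysosomes, and secretes lipoproteins and carrier proteins much as the later yolk sac and liver do. A patch of it on the future anterior side secretes antagonists of Nodal and Wnt that pattern the epiblast beneath.

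Levels are given in FPKM, fragments per kilobase of a gene's length after scaling for library depth, as the authors deposited them. The depth itself is not known from these values. Differences are epiblast minus visceral endoderm on the log2(FPKM + 1) scale, so that a positive value is higher in epiblast. That scale understates the change of genes with low levels. Differences, their standard errors and adjusted p-values come from limma with Benjamini-Hochberg adjustment over all genes tested, with the maternal genotype as a term. A gene was tested where at least 2 of the 8 libraries reached 1 FPKM and called at an adjusted p under 0.05. A gene that passed this limit through 1 lineage alone had to differ, so the counts below describe the lists and test nothing about them. In bulk libraries, more cells with a transcript and more RNA per cell cannot be told apart. Library values are listed in the order control replicate 1, control replicate 2, knockout replicate 1 and knockout replicate 2.

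The lineage markers were on the side of the labels in all 8 libraries. Pou5f1, the pluripotency factor on chromosome 17, positions 35506018 to 35510772 (GRCm38), had 427, 274, 694 and 595 FPKM in the epiblast libraries and 0.213, 0, 0 and 0 FPKM in the visceral endoderm libraries. Ttr, the thyroid hormone carrier transthyretin, had 1015, 1785, 609 and 1165 FPKM in visceral endoderm and 0.502, 0.42, 0 and 0.0175 FPKM in epiblast. Neither gene's groups overlapped, and in EXE Pou5f1 had 20.5, 0.127 and 13.8 FPKM. The 16 visceral endoderm markers together reached 0.669 to 1.34% of their visceral endoderm level in the epiblast libraries, most of it Apoe. The 14 epiblast markers reached 9.28 to 12.9% of their epiblast level in the visceral endoderm libraries, mostly through Utf1, Dnmt3b and Lin28a, while Pou5f1 and Tdgf1 were under 0.3 FPKM there. The EXE markers Elf5, Tfap2c, Wnt7b and Hand1 were under 0.4 FPKM in all 8 libraries, against 135, 151 and 184 FPKM of Elf5 in EXE. The other members of that list of 10 were not all low. Eomes had 6.70 to 22.7 FPKM over the 8 libraries. Tead4 had 6.91, 5.6, 5.26 and 8.47 FPKM in visceral endoderm, 0.108, 0.132, 0.0144 and 0.0787 FPKM in epiblast and 13.2, 15.7 and 12.3 FPKM in EXE, and Cdx2 had 1.83, 0.769, 3.72 and 1.36 FPKM in visceral endoderm, under 0.2 FPKM in epiblast and 6.01, 7.98 and 18 FPKM in EXE. Of the 5 members tested, these 2 were higher in visceral endoderm, Ascl2 (0.98, adjusted p 0.01) was higher in epiblast, and Eomes and Bmp4 were not called. Parietal endoderm markers summed to 551 to 813 FPKM in visceral endoderm and 49.0 to 83.9 FPKM in epiblast, with Sparc, which is also a visceral endoderm gene, making up most of it. Of 6 such markers tested, 4 (66.7%) were higher in visceral endoderm (Sparc, Pth1r, Col4a1 and Lamb1) and Vim (16.7%) in epiblast. Over all genes tested the shares were 17.4% and 22.2%. Pth1r, a parathyroid hormone receptor, averaged 1.58 ± 0.649 FPKM in epiblast and 102 ± 14.6 FPKM in visceral endoderm (SD, n = 4 each), while Thbd had at most 1.37 FPKM and Plat at most 3.83 FPKM in any library. Maternal decidua markers summed to at most 4.64 FPKM in any library. The 2 of 10 that were tested, Dcn and Des, were both higher in epiblast (1.22 and 1.09, limma adjusted p 6.83e-04 and 0.00116). Dcn had 1.42, 1.34, 0.928 and 1.69 FPKM in epiblast and is listed at 0 in all 4 visceral endoderm libraries. Blood cell markers summed to 45.7 FPKM in visceral endoderm knockout replicate 1, where Hba-a1 had 16.6 FPKM, and to at most 2.71 FPKM in the other 7 libraries. The part of these markers in the results was not tested. Bap1 itself had 22.6, 14.1, 21.8 and 33.8 FPKM in epiblast and 14, 15.6, 18.3 and 19.4 FPKM in visceral endoderm, a level that does not check the deletion in the oocyte, since the embryos carry a paternal allele. Y-linked transcripts summed to 38.1 to 68 FPKM in 4 libraries, 1 in each group, and to 0 in the other 4.

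Library correlations on the log2 scale ran from 0.907 to 0.974 within epiblast, from 0.957 to 0.977 within visceral endoderm and from 0.767 to 0.85 between the lineages, as a description over genes of single libraries. The main axis of variation held 69.4% of the variance and separated the lineages, and the next held 15.2% and placed epiblast knockout replicate 1 and epiblast control replicate 2 at its opposite ends. The median standard deviation over the 4 libraries was 0.42 (log2) in epiblast and 0.31 in visceral endoderm. Between 10476 and 12459 genes reached 1 FPKM in a library. Without epiblast knockout replicate 1, 3036 genes were called higher in epiblast and 2344 higher in visceral endoderm, and without visceral endoderm knockout replicate 1 the counts were 2387 and 1957.

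Promoter sequences are shown for 2 of the genes with the largest differences, because a stretch of each holds a short word recognised by a transcription factor family with a known role in one of the lineages. They are the 250 bases before a start in RefSeq (GRCm38.p6), read 5′ to 3′ on the strand of the gene, with the matched word in capitals, and each of the 2 genes has 2 starts in the table. For Pou5f1 the stretch at the annotated start of the gene is chr17:35505782-35506031 on the plus strand and holds none of the words searched. The other Pou5f1 stretch is chr17:35508557-35508806, which lies inside the gene before an alternative start, and its capitals mark ACAATGG, a word of SOX factors. The Rbp4 stretch is chr19:38125322-38125571 on the minus strand, and its capitals mark TGTTTAC, a word of FOX factors, on the opposite strand. The other Rbp4 stretch, chr19:38124812-38125061, holds none of the words and is not printed.
Pou5f1, first start: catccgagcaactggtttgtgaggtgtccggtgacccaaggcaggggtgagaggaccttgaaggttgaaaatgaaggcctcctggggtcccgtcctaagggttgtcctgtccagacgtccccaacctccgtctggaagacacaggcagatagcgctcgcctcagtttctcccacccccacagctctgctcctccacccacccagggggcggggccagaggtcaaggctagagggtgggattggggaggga
Pou5f1, alternative start: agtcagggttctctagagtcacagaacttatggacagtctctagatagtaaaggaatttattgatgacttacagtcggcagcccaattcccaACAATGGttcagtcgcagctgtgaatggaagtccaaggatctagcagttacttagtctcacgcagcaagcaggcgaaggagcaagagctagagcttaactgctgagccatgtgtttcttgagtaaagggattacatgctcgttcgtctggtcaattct
Rbp4: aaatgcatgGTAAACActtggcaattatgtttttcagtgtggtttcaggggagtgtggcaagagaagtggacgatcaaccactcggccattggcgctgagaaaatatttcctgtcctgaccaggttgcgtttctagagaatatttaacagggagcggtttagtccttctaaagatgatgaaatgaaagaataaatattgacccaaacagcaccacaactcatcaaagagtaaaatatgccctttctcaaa
Searched on both strands of the 32851 promoter stretches in the table, the SOX word was present in 3.02% and the FOX word in 3.17%. The HNF4 word CAAAGTCCA was present in 0.384%, the GATA word AGATAAG in 2.74% and the octamer ATTTGCAT in 1.6%. Of the 24 genes with the largest differences, 18 were searched, which left out Ttr and Spink1 among others. Whether the table holds promoters of the genes left out is not stated here. Of the 18 genes searched, 4 held a match to any of the 5 words in at least 1 of their stretches. The other 2 were Gng3, higher in epiblast, with the SOX word, and Srgn, higher in visceral endoderm, with the octamer. A match describes the letters only and is neither a binding site nor a cause.

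The lineages differed at 5300 of 13376 genes tested (39.6%). Of these, 2968 genes (22.2% of those tested) were higher in epiblast and 2332 (17.4%) higher in visceral endoderm, while 8076 were not called. The table lists 55401 genes, of which 17477 were at 0 in all 8 libraries. The larger differences lay on the visceral endoderm side, where 304 genes (2.27%) differed by at least 3 on the log2 scale, against 165 (1.23%) on the epiblast side. Genes at least that much higher in visceral endoderm held 10.2 to 11.9% of the summed FPKM of each visceral endoderm library and 0.354 to 0.516% of each epiblast library. Genes at least that much higher in epiblast held 1.06 to 1.48% of the summed FPKM in epiblast and 0.0283 to 0.0488% in visceral endoderm. The median difference over all genes tested was 0.21. It was 0.13 after quantile normalization or median centring and 0.26 after scaling to TPM, and epiblast then held 51.1%, 51.1% and 59.3% of the calls in place of 56.0%.

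**Figure D1:**
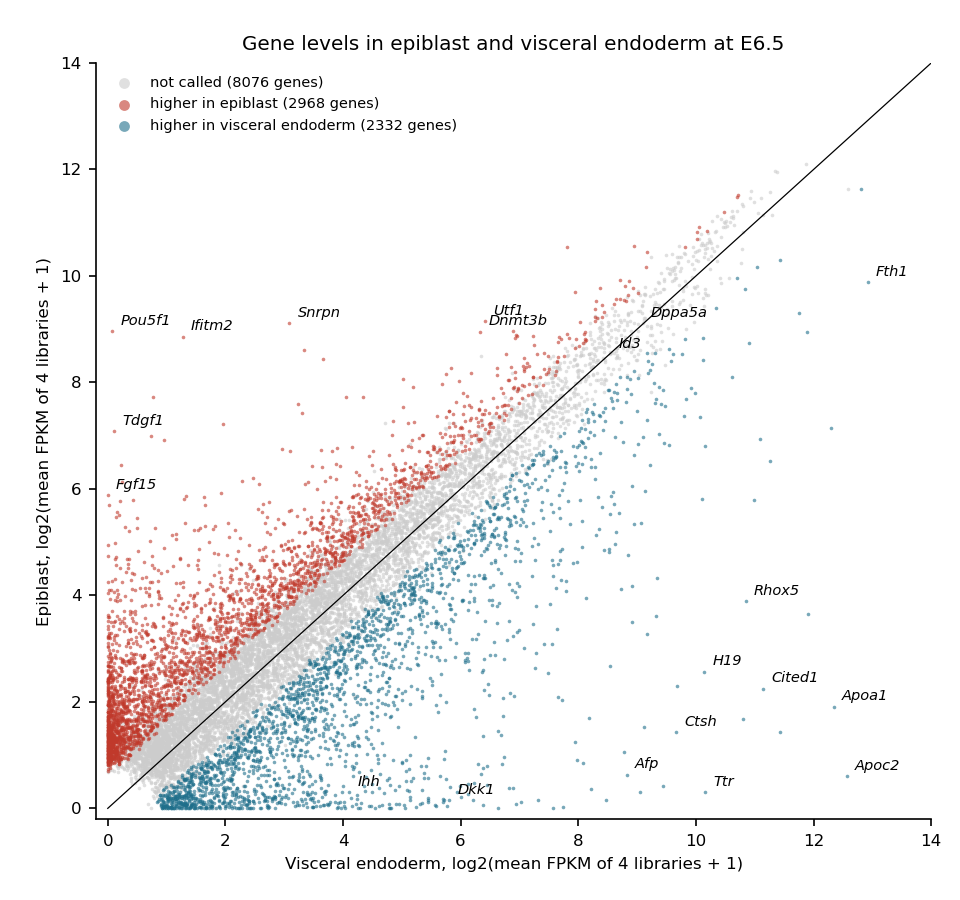
Mean level of each of the 13376 genes tested in visceral endoderm (x axis) and epiblast (y axis), both as log2(mean FPKM of 4 libraries + 1), with the 2968 genes higher in epiblast in red, the 2332 higher in visceral endoderm in blue and 8076 not called in grey. The blue points reach farther from the diagonal, up to Apoc2, Apoa1 and Ttr, and Pou5f1 and Ifitm2 lie at the upper left.

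The 12 largest differences on the epiblast side belonged to genes of varied function, among them the transcription factors Pou5f1 and Pou3f1 and the Nodal co-receptor Tdgf1. Pou5f1 led with 8.81 ± 0.28 (SE), adjusted p 2.23e-08. Ifitm2, an interferon-induced membrane protein, had 570.4, 494, 368 and 422 FPKM in epiblast and 0.869, 2.14, 1.6 and 1.05 FPKM in visceral endoderm (7.60 ± 0.24 (SE), adjusted p 2.23e-08). Of the 50-base words of Ifitm2, 48.5% also occur in other annotated genes, so its level is uncertain. Tdgf1, the Nodal co-receptor Cripto, had 112, 146, 88.7 and 194 FPKM in epiblast and at most 0.165 FPKM in visceral endoderm (6.92 ± 0.28 (SE), adjusted p 1.12e-07). Slc7a3, a transporter of cationic amino acids, had 160.5, 175, 149.8 and 359 FPKM against 0.567, 0.96, 0.6 and 0.711 FPKM (6.86 ± 0.30 (SE), adjusted p 2.05e-07). The POU factor Pou3f1 had 76.7, 92.2, 125 and 52.2 FPKM in epiblast and was under 0.3 FPKM in visceral endoderm (6.17 ± 0.29 (SE), adjusted p 3.20e-07), but EXE had 75.1, 67.6 and 72 FPKM. Fgf15 is listed at 0 in all 4 visceral endoderm libraries and had 41.2, 45.2, 60.5 and 86 FPKM in epiblast. Uchl1, a ubiquitin hydrolase abundant in neurons, averaged 127 ± 42.6 FPKM in epiblast and 0.661 ± 0.431 FPKM in visceral endoderm (SD, n = 4 each). Gng3, a G protein gamma subunit, averaged 69.3 ± 19.2 FPKM in epiblast and 0.182 ± 0.178 FPKM in visceral endoderm (SD, n = 4 each). The imprinted Snrpn (5.98), the protease inhibitor-like Wfdc2 (5.87), Mid1ip1 (5.53) and Psors1c2 (5.41) complete the 12. In each of these 12 genes the 4 epiblast libraries lay above the 4 visceral endoderm libraries, which the choice of genes required.

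The largest differences on the visceral endoderm side included 4 apolipoproteins and the carriers Ttr, Rbp4 and Afp, besides genes of other functions. Apoc2, the cofactor of lipoprotein lipase, had 3303, 11996, 3466 and 5413 FPKM in visceral endoderm and 0.393, 1.66, 0 and 0 FPKM in epiblast (-11.88 ± 0.39 (SE), adjusted p 2.73e-08). Exons of another gene model, Gm44805, cover 79.5% of the exonic length of Apoc2, so reads of the pair could be split between them. Apoa1, the main protein of high-density lipoprotein, had 5949, 4974, 5085 and 4786 FPKM against 5.17, 4.5, 0.965 and 0.39 FPKM (-10.71 ± 0.33 (SE), adjusted p 2.23e-08). Apom had 2935, 3279, 1903 and 2888 FPKM against 2.48, 3.65, 0.126 and 0.489 FPKM (-10.21 ± 0.30 (SE), adjusted p 2.13e-08), and Ttr differed by -9.78 ± 0.27 (SE), adjusted p 1.72e-08. Cited1, a coactivator that lacks DNA binding, had the smallest standard error of these 12. It had 2257, 2344, 2218 and 2205 FPKM in visceral endoderm, 3.85, 3.77, 4.26 and 3.1 FPKM in epiblast (-8.90 ± 0.19 (SE), adjusted p 5.07e-09) and 240.4, 226 and 163 FPKM in EXE. Rbp4, which carries retinol, had 1958, 2429, 1455 and 1314 FPKM against 1.67, 3.89, 1.98 and 1.34 FPKM (-9.14 ± 0.24 (SE), adjusted p 1.50e-08). Afp, the fetal carrier alpha-fetoprotein, averaged 0.553 ± 0.63 FPKM in epiblast and 453 ± 104 FPKM in visceral endoderm (SD, n = 4 each). The lysosomal protease Ctsh averaged 1.69 ± 0.609 FPKM in epiblast and 804 ± 198 FPKM in visceral endoderm (SD, n = 4 each). The trypsin inhibitor Spink1 (-9.27), Apoa4 (-9.00), the galectin Lgals2 (-8.28) and the proteoglycan Srgn (-7.95) complete the 12. Exons of other gene models cover 69.8% of the exonic length of Apoa4. For Spink1 the epiblast libraries were spread out, with 34.3, 11.4, 0.178 and 0.597 FPKM, the 2 control libraries being the high ones.

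**Figure D2:**
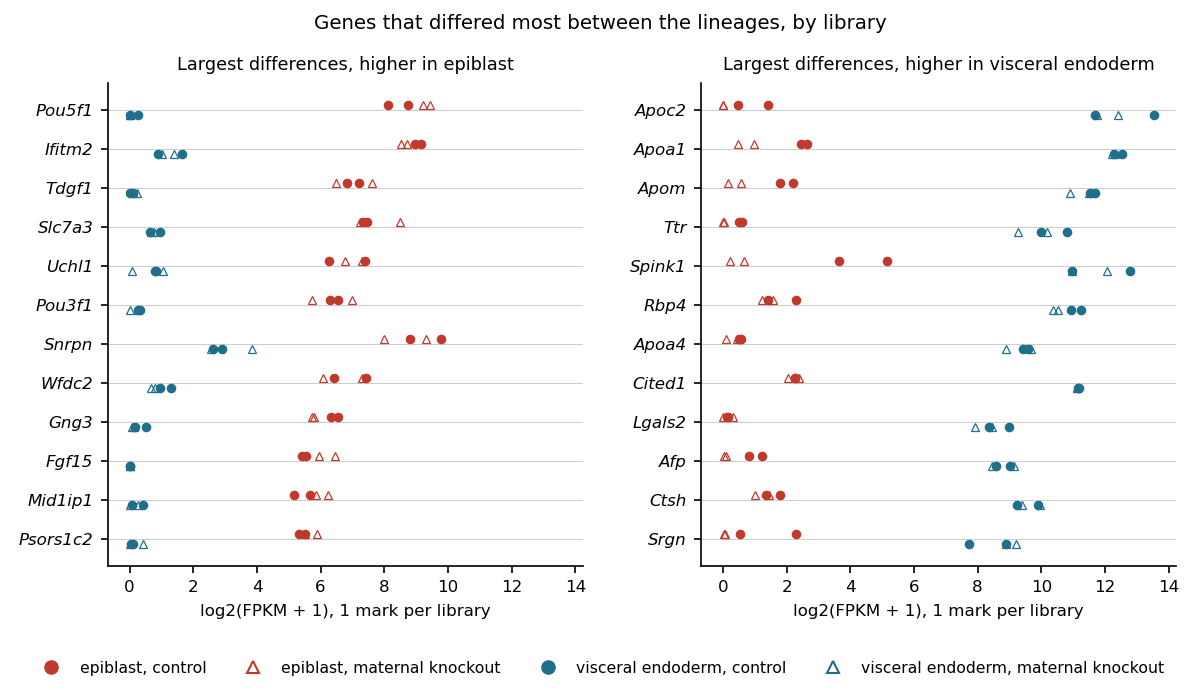
Level of the 12 genes with the largest difference in each direction in each of the 8 libraries, as log2(FPKM + 1), with filled circles for control and open triangles for maternal knockout libraries. Red epiblast and blue visceral endoderm marks are apart in every row, by the rule that chose the genes, and the epiblast marks of Spink1 spread over the widest range.

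Lipoprotein and plasma protein genes were mostly higher in visceral endoderm. Of 18 genes for apolipoproteins and lipoprotein assembly, 1 (5.56%) was higher in epiblast, 15 (83.3%) in visceral endoderm and 2 were not called. Over all genes tested the shares were 22.2% and 17.4%. The median difference was -4.72 against 0.21 over all genes tested. The 18 genes made up 2.36 to 3.52% of the summed FPKM in visceral endoderm and 0.0487 to 0.069% in epiblast. Apob, the scaffold of large lipoproteins, had 9.31, 24.8, 39.8 and 45.8 FPKM in visceral endoderm and at most 0.107 FPKM in epiblast (-4.65, adjusted p 9.12e-06). Mttp, which loads lipid onto it, averaged 0.557 ± 0.251 FPKM in epiblast and 80.5 ± 23.4 FPKM in visceral endoderm (SD, n = 4 each), and the cholesterol esterifying enzyme Soat2 differed by -6.42, adjusted p 1.10e-07. Apoe was uneven between libraries. It had 9654, 1906, 6862 and 1595 FPKM in visceral endoderm, the replicate 1 libraries of both genotypes being high, and 125, 130.4, 205 and 98.4 FPKM in epiblast (-4.80, adjusted p 9.61e-05). The phospholipid transfer protein Pltp went the other way, with 2.54, 2.36, 3.36 and 6.07 FPKM in epiblast and 0.543, 0.131, 0.431 and 0.319 FPKM in visceral endoderm (1.70, adjusted p 5.68e-04). The triglyceride enzyme Dgat1 averaged 16.6 ± 10.5 FPKM in epiblast and 15.6 ± 3.5 FPKM in visceral endoderm with overlapping ranges and was not called, whereas its partner Dgat2 averaged 5.73 ± 1.04 FPKM in epiblast and 66.7 ± 6.59 FPKM in visceral endoderm (-3.34, adjusted p 2.16e-06).

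All 13 of the secreted plasma protein genes that could be tested, of 20 in the list, were higher in visceral endoderm. The share over all genes tested was 17.4%. The median difference of the 13 was -4.65. In all, 16 of the 20 were under 1 FPKM in every epiblast library and 7 in every visceral endoderm library. Fibrinogen chains were among them, with Fgb at 62.8, 48.1, 57 and 45.7 FPKM and Fgg at 38.8, 32.8, 24.7 and 11.7 FPKM in visceral endoderm. Coagulation factor F10 is listed at 0 in all 4 epiblast libraries and had 30.5, 31.8, 22.8 and 22.7 FPKM in visceral endoderm. Prothrombin F2 averaged 0.427 ± 0.287 FPKM in epiblast and 34.8 ± 7.29 FPKM in visceral endoderm (SD, n = 4 each). The iron carrier Trf had 59, 40.4, 54.1 and 43 FPKM (-5.06, adjusted p 4.85e-07), with 63.5% of its exonic length under another gene model. The 7 untested genes include albumin, the main plasma protein of the later liver. Alb reached at most 0.107 FPKM, and Ahsg, Apoh, Vtn, Hpx, Itih2 and Kng1 stayed under 0.5 FPKM in every library.

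Genes of uptake and degradation were also mostly higher in visceral endoderm. Of 17 endocytic receptors and adaptors tested, 3 were higher in epiblast, 9 in visceral endoderm and 5 were not called, with a median difference of -1.09. The shares were 17.6% and 52.9%, beside 22.2% and 17.4% of all genes tested. Cubn, the receptor cubilin, had 53.6, 197, 123 and 143 FPKM in visceral endoderm and at most 0.123 FPKM in epiblast (-6.77 ± 0.36 (SE), adjusted p 6.04e-07). Its membrane partner Amn had 567, 569.6, 631 and 462 FPKM against 2.12, 0.83, 3.31 and 1.33 FPKM (-7.66 ± 0.28 (SE), adjusted p 6.17e-08), and the adaptor Dab2 had 939, 539, 1194 and 615 FPKM against 2.6, 6.27, 2.13 and 4.61 FPKM (-7.40 ± 0.35 (SE), adjusted p 3.14e-07). The transferrin receptor had the opposite order. Tfrc averaged 20.8 ± 2.43 FPKM in epiblast and 2.7 ± 1.11 FPKM in visceral endoderm (2.61, adjusted p 5.74e-05). Among those not called, Vps35 had 20.1, 68.8, 15.6 and 65.6 FPKM in epiblast and 56, 72, 128 and 82.1 FPKM in visceral endoderm, with an adjusted p of 0.0776.

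Of 30 lysosomal genes, 2 (6.67%) were higher in epiblast, 27 (90.0%) in visceral endoderm and 1 was not called, beside 22.2% and 17.4% of all genes. The median difference of the list was -2.35. The proteases led, with Ctsh, Lgmn (-5.77 ± 0.37 (SE), adjusted p 1.71e-06), Ctsl (-5.13 ± 0.28 (SE), adjusted p 6.60e-07) and Ctsb (-5.02 ± 0.32 (SE), adjusted p 1.77e-06). Ctsl had 2568, 1711, 2610.4 and 1192 FPKM in visceral endoderm and 48.8, 58.3, 53.1 and 56.4 FPKM in epiblast, and no epiblast library came near the visceral endoderm range. The aspartic protease Ctsd differed least of the called cathepsins, averaging 52.8 ± 10.1 FPKM in epiblast and 86 ± 16.7 FPKM in visceral endoderm (-0.69, adjusted p 0.0291). Subunits of the proton pump that acidifies lysosomes were higher too, with Atp6v0d1 at 241, 174, 212 and 198 FPKM against 48.1, 43.1, 30.6 and 50.4 FPKM. The exceptions were the sphingolipid activator Psap, with 10.1, 6.62, 31 and 19 FPKM in epiblast and 2.92, 2.93, 4.41 and 2.02 FPKM in visceral endoderm (1.94, adjusted p 0.00196), and the glucuronidase Gusb (1.23, adjusted p 0.00409). Grn, which averaged 30.5 ± 7.73 FPKM in epiblast and 36.8 ± 5.66 FPKM in visceral endoderm, was not called.

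Of 11 microvillus genes tested of 15 listed, 1 (9.09%) was higher in epiblast, 7 (63.6%) in visceral endoderm and 3 were not called. Over all genes tested the shares were 22.2% and 17.4%. The peptidase Dpp4 had 27.9, 34.1, 57.3 and 39.4 FPKM in visceral endoderm and 0, 0.265, 0.457 and 0.358 FPKM in epiblast (-4.97, adjusted p 4.16e-07), and the actin bundler villin, Vil1, had 31, 39.7, 30.2 and 29.4 FPKM against 0.445, 0.156, 0.218 and 0.911 FPKM (-4.57, adjusted p 9.03e-07). The scaffold Ush1c was higher in epiblast, at 1.12, 1.39, 1.63 and 1.6 FPKM (1.21, adjusted p 5.64e-04). Genes better known from the mature gut surface, Anpep, Myo1a, Myo7b and Cdhr5, stayed under 1 FPKM in all 8 libraries and were not tested.

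Iron and vitamin genes leaned toward visceral endoderm. Of 16 tested, 3 (18.8%) were higher in epiblast, 11 (68.8%) in visceral endoderm and 2 were not called. Over all genes tested the shares were 22.2% and 17.4%, so the epiblast share was near that of all genes. Folr1, a folate receptor, had 503, 459, 664 and 672 FPKM in visceral endoderm and 6.86, 8.68, 8.1 and 11.3 FPKM in epiblast (-5.88 ± 0.21 (SE), adjusted p 3.63e-08). Fth1, the ferritin heavy chain, was the most abundant gene of visceral endoderm, averaging 940.2 ± 245 FPKM in epiblast and 7753 ± 1286 FPKM in visceral endoderm (SD, n = 4 each; -3.07, adjusted p 1.16e-05). Tcn2, which carries vitamin B12, averaged 3.19 ± 0.906 FPKM in epiblast and 104 ± 14.6 FPKM in visceral endoderm (-4.67, adjusted p 4.85e-07). Cyp26a1, the enzyme that degrades retinoic acid, had 247, 153, 483 and 279 FPKM in visceral endoderm and 4.63, 4.16, 0.196 and 0.0361 FPKM in epiblast, the knockout epiblast libraries being the lowest (-6.77, adjusted p 1.05e-05). Crabp2, which binds retinoic acid in the cytoplasm, was higher in epiblast, with 68.5, 66.3, 63.1 and 74 FPKM against 26.9, 30.3, 12.5 and 42.5 FPKM (1.37, adjusted p 0.0084).

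Cholesterol synthesis leaned the other way. Of 19 enzymes, 9 were higher in epiblast, 3 in visceral endoderm and 7 were not called, with a median difference of 0.75. The shares were 47.4% and 15.8%, beside 22.2% and 17.4% of all genes tested. Sqle had 32.6, 29.8, 29.3 and 67.3 FPKM in epiblast and 4.27, 4.85, 11.3 and 7.35 FPKM in visceral endoderm (2.35 ± 0.29 (SE), adjusted p 1.54e-04). Fdps averaged 288 ± 78.3 FPKM in epiblast and 71.2 ± 18.9 FPKM in visceral endoderm (1.99, adjusted p 2.65e-04) and Hmgcs1 averaged 29.3 ± 10.2 FPKM in epiblast and 9.6 ± 2.13 FPKM in visceral endoderm (1.49, adjusted p 0.00123). The isomerase Ebp was higher in visceral endoderm, with 63.3, 53.7, 83.8 and 88.6 FPKM against 8.63, 10.2, 6.37 and 7.26 FPKM (adjusted p 1.14e-05). This count depended on single libraries, with 5 enzymes higher in epiblast without epiblast knockout replicate 2, without visceral endoderm control replicate 1 or without visceral endoderm knockout replicate 2.

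**Figure D3:**
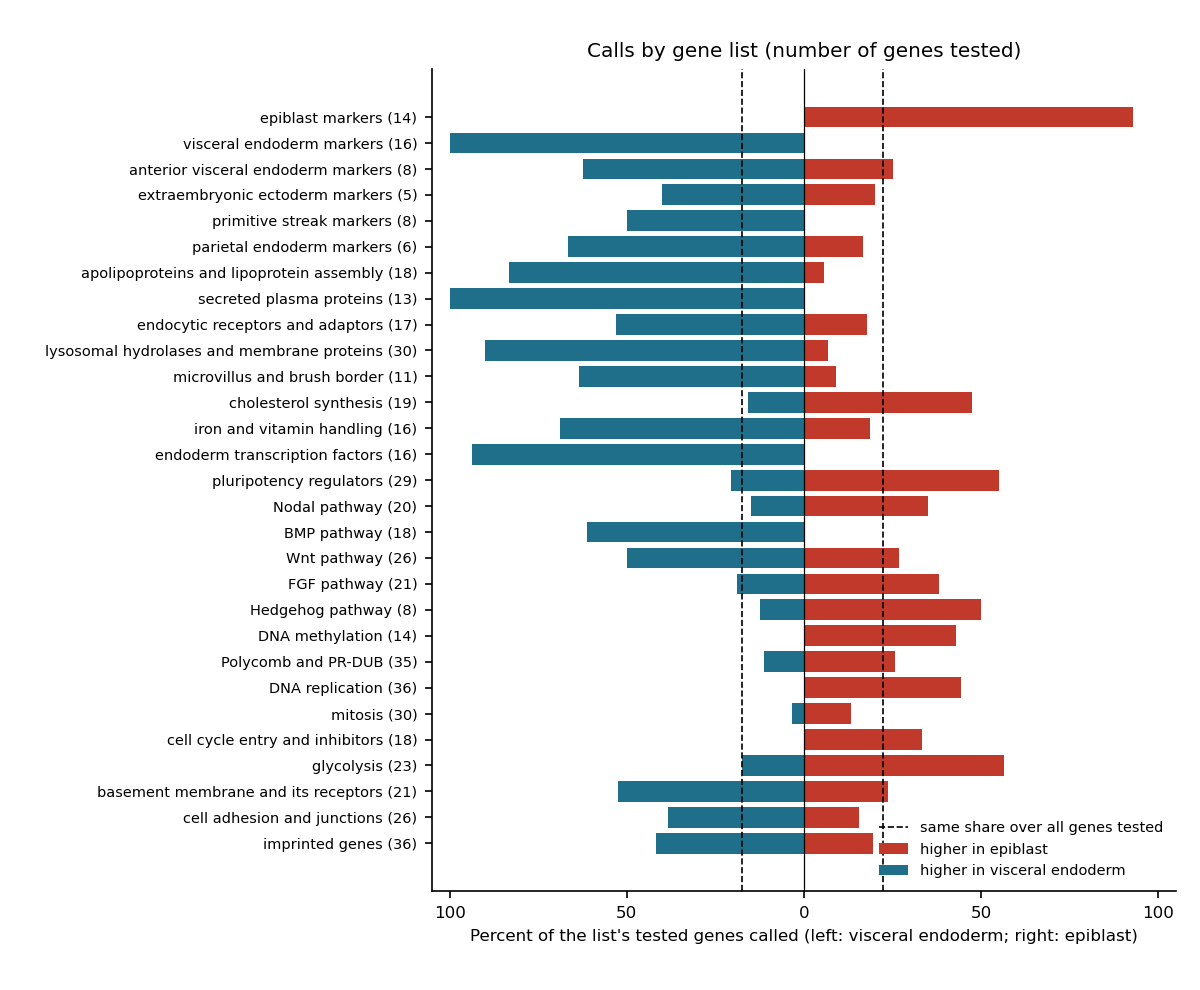
Share of the tested genes of each list called higher in visceral endoderm (blue, to the left) or epiblast (red, to the right), for the 29 lists with at least 5 tested genes, whose number stands in brackets, with dashed lines at the shares over all genes tested (17.4% and 22.2%). All bars of the plasma protein list and most of the lysosomal and endoderm factor lists lie to the left, and those of DNA replication and DNA methylation lie to the right.

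Transcription factors split by lineage. Of 16 endoderm factors tested of 19, none was higher in epiblast, 15 (93.8%) in visceral endoderm and 1 was not called. Over all genes tested the shares were 22.2% and 17.4%. The median difference of the factors was -3.21. Sox17 had 82.5, 15.7, 73.5 and 32.4 FPKM in visceral endoderm, with control replicate 2 the low library, and at most 0.246 FPKM in epiblast (-5.26 ± 0.47 (SE), adjusted p 1.54e-05). Gata4 had 29.6, 29.2, 35.9 and 41.3 FPKM (-4.96 ± 0.23 (SE), adjusted p 2.65e-07) and Hnf4a 20.5, 48.3, 22.3 and 36.6 FPKM (-4.90 ± 0.31 (SE), adjusted p 1.57e-06). Its paralogue Hnf4g is listed at 0 in all 8 libraries. Tcf7l2 was the member not called, with 5.55, 3.13, 10.4 and 3.55 FPKM and 5.99, 11.8, 9.79 and 10.5 FPKM.

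Of 29 pluripotency regulators tested of 33, 16 were higher in epiblast, 6 in visceral endoderm and 7 were not called, with a median difference of 1.35. The shares were 55.2% and 20.7%, beside 22.2% and 17.4% of all genes tested. Sox2 had 8.37, 2.91, 23.1 and 6.89 FPKM in epiblast and 0, 0.104, 0 and 0.192 FPKM in visceral endoderm (3.09 ± 0.43 (SE), adjusted p 2.90e-04). Nanog had 10.2, 17.8, 11.8 and 7.96 FPKM in epiblast and under 0.5 FPKM in visceral endoderm (3.23 ± 0.28 (SE), adjusted p 1.47e-05), and Otx2 had 73.5, 73, 56.1 and 89.8 FPKM against 4.85, 1.29, 7.19 and 4.72 FPKM (3.87 ± 0.35 (SE), adjusted p 1.80e-05). Some factors of the naive state, which marks the earlier preimplantation epiblast, were low in epiblast. Klf4, Tfcp2l1, Esrrb, Klf2, Nr5a2 and Prdm14 were each under 0.5 FPKM in all 4 epiblast libraries. Only 7 of the 33 listed genes were under 1 FPKM in every epiblast library, and Zfp42, Dppa3 and Dppa5a were not among them. Several of the list were higher in visceral endoderm instead. Tbx3 had 10.3, 18.5, 13 and 16.3 FPKM there and at most 0.0278 FPKM in epiblast (-3.92 ± 0.25 (SE), adjusted p 1.84e-06), and Klf5 had 18.5, 17.5, 22.4 and 12.5 FPKM against 0.824, 0.598, 1.06 and 0.768 FPKM (-3.35 ± 0.26 (SE), adjusted p 6.40e-06). The RNA-binding protein genes Lin28a and Lin28b parted. Lin28a had 56.5, 23, 60.7 and 44 FPKM in epiblast and 26.3, 65.8, 41.4 and 58.7 FPKM in visceral endoderm and was not called, while Lin28b averaged 15.1 ± 4.84 FPKM in epiblast and 0.834 ± 0.43 FPKM in visceral endoderm (3.12, adjusted p 2.23e-05). Dppa5a was abundant in both, at 518, 321, 739 and 641 FPKM and 352, 459, 431 and 940.2 FPKM, and 38.6% of its 50-base words occur in other gene models. Utf1 and Dnmt3b differed, by 2.84 and 2.58, but kept 89.6, 39, 119.7 and 87.8 FPKM and 61.1, 93.2, 72.8 and 90.7 FPKM in visceral endoderm.

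In Nodal signalling, the ligand Nodal itself was not called, with 13.6, 11.9, 33.3 and 18 FPKM in epiblast and 10.7, 8.2, 16.5 and 8.29 FPKM in visceral endoderm (0.70, adjusted p 0.0919). The co-receptors were higher in opposite lineages. Tdgf1 was an epiblast transcript, whereas its relative Cfc1, or Cryptic, had 76.9, 68.9, 63.2 and 86.6 FPKM in visceral endoderm and 3.37, 2.97, 2.9 and 1.31 FPKM in epiblast (-4.39 ± 0.26 (SE), adjusted p 1.03e-06). The receptor Acvr2b had 100.1, 27.6, 163 and 50.3 FPKM in epiblast against 9, 13.5, 6.18 and 11.7 FPKM (2.71, adjusted p 0.00163). Among the antagonists, Cer1 had 35, 12.9, 59.1 and 17 FPKM in visceral endoderm and 3.22, 0.0814, 0 and 0 FPKM in epiblast (-4.22, adjusted p 2.73e-04), while Lefty2 had 5.64, 4.66, 0.256 and 6.31 FPKM in epiblast and at most 0.00847 FPKM in visceral endoderm (adjusted p 0.00543), knockout replicate 1 being the low epiblast library. Lefty1, a marker of the anterior visceral endoderm, overlapped, with 6.78, 1.93, 4.09 and 9.29 FPKM in epiblast and 1.12, 0.0415, 3.67 and 0 FPKM in visceral endoderm (1.71, adjusted p 0.0233), and its call was lost without any of 4 libraries (epiblast control replicate 1, epiblast knockout replicate 2, visceral endoderm control replicate 2 or visceral endoderm knockout replicate 2). Gdf1 (4.47, adjusted p 3.37e-04) lies wholly within the exons of Cers1, so the pair cannot be told apart. Of 20 Nodal pathway genes, 7 were higher in epiblast, 3 in visceral endoderm and 10 were not called. Over all genes tested the shares were 22.2% and 17.4%. The epiblast share of the list was thus above that of all genes, and the visceral endoderm share slightly below.

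BMP pathway genes that were called were higher in visceral endoderm. Of 18 tested of 24, none was higher in epiblast, 11 in visceral endoderm and 7 were not called, beside 17.4% of all genes higher in visceral endoderm. The 11 became 9 to 11 on leaving out 1 library, 7 and 5 with the control or knockout libraries alone, and 4 where a mean of 5 FPKM was required, and 1 gene was called higher in epiblast with no filter on low values. The target genes Id1 and Id2 led. Id1 had 379, 339.7, 384 and 464 FPKM in visceral endoderm and 3.35, 32.7, 53.5 and 30.6 FPKM in epiblast, where control replicate 1 was the low library (-4.12 ± 0.57 (SE), adjusted p 3.00e-04), and Id2 had 238, 194, 173 and 174 FPKM against 5.95, 20.5, 21.8 and 17.9 FPKM (-3.61 ± 0.36 (SE), adjusted p 3.56e-05). Id3 did not follow, at 418, 317, 357 and 396 FPKM and 401, 337, 366 and 369.9 FPKM, and was not called (difference -0.01, adjusted p 0.981). The ligands Bmp2 (2.94, 2.81, 1.71 and 2.15 FPKM in visceral endoderm) and Bmp6 (3.47, 5.38, 4.79 and 3.12 FPKM) were under 0.3 FPKM in epiblast. Bmp4 averaged 2.15 and 1.8 FPKM in epiblast and visceral endoderm and was not called, with 95.9, 79.3 and 129.7 FPKM in EXE. The effectors Smad1 (-1.25, adjusted p 0.00275) and the inhibitor Smad6 (-1.98, adjusted p 1.75e-04) were higher in visceral endoderm, and the receptors Bmpr1a and Bmpr2 were not called.

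The Wnt ligands Wnt11 and Wnt3, the secretion genes Wls and Porcn and the antagonists Dkk1, Sfrp5, Sfrp1, Frzb and Notum were higher in visceral endoderm, and the transcription factors Lef1, Tcf7l1 and Tcf7 in epiblast. Of 26 tested of 34, 7 were higher in epiblast, 13 in visceral endoderm and 6 were not called. The epiblast share was 26.9%, near the 22.2% of all genes tested. The visceral endoderm share was above the 17.4% of all genes tested. Dkk1, an antagonist of the Wnt co-receptors, had 74.9, 25.3, 65.3 and 54.1 FPKM in visceral endoderm and 0.165, 0.184, 0.0782 and 0.0386 FPKM in epiblast (-5.54 ± 0.34 (SE), adjusted p 1.35e-06). The ligand Wnt11 had 23.8, 15.3, 29.8 and 15.9 FPKM against 0.43, 1.2, 0.752 and 0.163 FPKM (-3.75 ± 0.32 (SE), adjusted p 1.14e-05), Wnt3 had 8.41, 10.2, 7.22 and 8.07 FPKM against 0.761, 2.71, 4.56 and 1.32 FPKM (-1.63, adjusted p 0.00506), and the Wnt carrier Wls averaged 3.74 ± 1.8 FPKM in epiblast and 37.2 ± 6.31 FPKM in visceral endoderm (-3.06, adjusted p 2.43e-05). The antagonist Sfrp2 (2.67, adjusted p 3.72e-05) and the ligand Wnt8a went the other way, Wnt8a standing at 2.06, 3.23, 3.79 and 0.0637 FPKM against at most 0.108 FPKM with epiblast knockout replicate 2 inside the visceral endoderm range (1.47, adjusted p 0.0163). The transcription factor Lef1 had 20.7, 12.4, 27.2 and 14.7 FPKM in epiblast and under 0.3 FPKM in visceral endoderm (4.13 ± 0.29 (SE), adjusted p 3.48e-06), and Tcf7l1 had 25.9, 15.3, 26.6 and 29.5 FPKM against 1.16, 1.39, 2.79 and 2.2 FPKM (3.13 ± 0.25 (SE), adjusted p 7.50e-06). Beta-catenin, Ctnnb1, had 143, 95.1, 115 and 127 FPKM and 74.3, 129, 109 and 128 FPKM and was not called, nor was the target Axin2.

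FGF pathway genes were called in both directions. Of 21 genes, 8 were higher in epiblast, 4 in visceral endoderm and 9 were not called. The epiblast share was 38.1%, beside 22.2% of all genes tested. The visceral endoderm share was near the 17.4% of all genes tested. Fgf4 is listed at 0 in all visceral endoderm libraries and had 6.59, 3.83, 17.5 and 34 FPKM in epiblast. Fgf5 had 53.3, 66.8, 35.5 and 103 FPKM in epiblast and 18.2, 8.65, 38.5 and 20.2 FPKM in visceral endoderm, where knockout replicate 1 lay above the lowest epiblast library (1.62, adjusted p 0.00988). Fgf8 had 49.3, 56.6, 61.1 and 6.74 FPKM and 22.2, 9.13, 44.4 and 27.5 FPKM and was not called, epiblast knockout replicate 2 being low; without that library its difference was 1.40 (adjusted p 0.0145). Fgfr1 averaged 15 ± 8.21 FPKM in epiblast and 1.77 ± 0.346 FPKM in visceral endoderm (2.41, adjusted p 3.24e-04). Fgfr4 had 8.43, 7.4, 6.45 and 6.05 FPKM in visceral endoderm and at most 0.14 FPKM in epiblast (-2.93, adjusted p 4.56e-06). Its cofactor Klb, which lets it bind the endocrine FGFs such as Fgf15, had 5.77, 11.5, 6.69 and 9.18 FPKM in visceral endoderm and 0, 0, 0.317 and 0 FPKM in epiblast (-3.07, adjusted p 1.46e-05). Dusp6 and Etv5, feedback and target genes of the pathway, were higher in epiblast (1.98 and 1.15).

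The Hedgehog ligand was higher in visceral endoderm and 4 other genes of the pathway in epiblast. Of 8 tested of 15, 4 were higher in epiblast, 1 in visceral endoderm and 3 were not called. The visceral endoderm share was 12.5%, below the 17.4% of all genes tested, and rests on the ligand alone. The epiblast share was above the 22.2% of all genes tested. Ihh, the ligand, had 20.5, 17.2, 13.8 and 13.3 FPKM in visceral endoderm and 0.0434, 0.0284, 0.436 and 0.421 FPKM in epiblast (-3.80 ± 0.26 (SE), adjusted p 3.14e-06). The signal transducer Smo had 16.9, 10.2, 13.9 and 12.8 FPKM in epiblast against 1.52, 3.15, 2.05 and 2.42 FPKM (2.14 ± 0.27 (SE), adjusted p 1.58e-04), and Gli3 and Gli2 were higher in epiblast too (1.68 and 0.86). The receptor Ptch1 had 3.77, 2.4, 8.25 and 3.05 FPKM and 0.89, 2.79, 0.968 and 2.41 FPKM, with an adjusted p of 0.0754. Shh is listed at 0 in 7 of the 8 libraries.

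**Figure D4:**
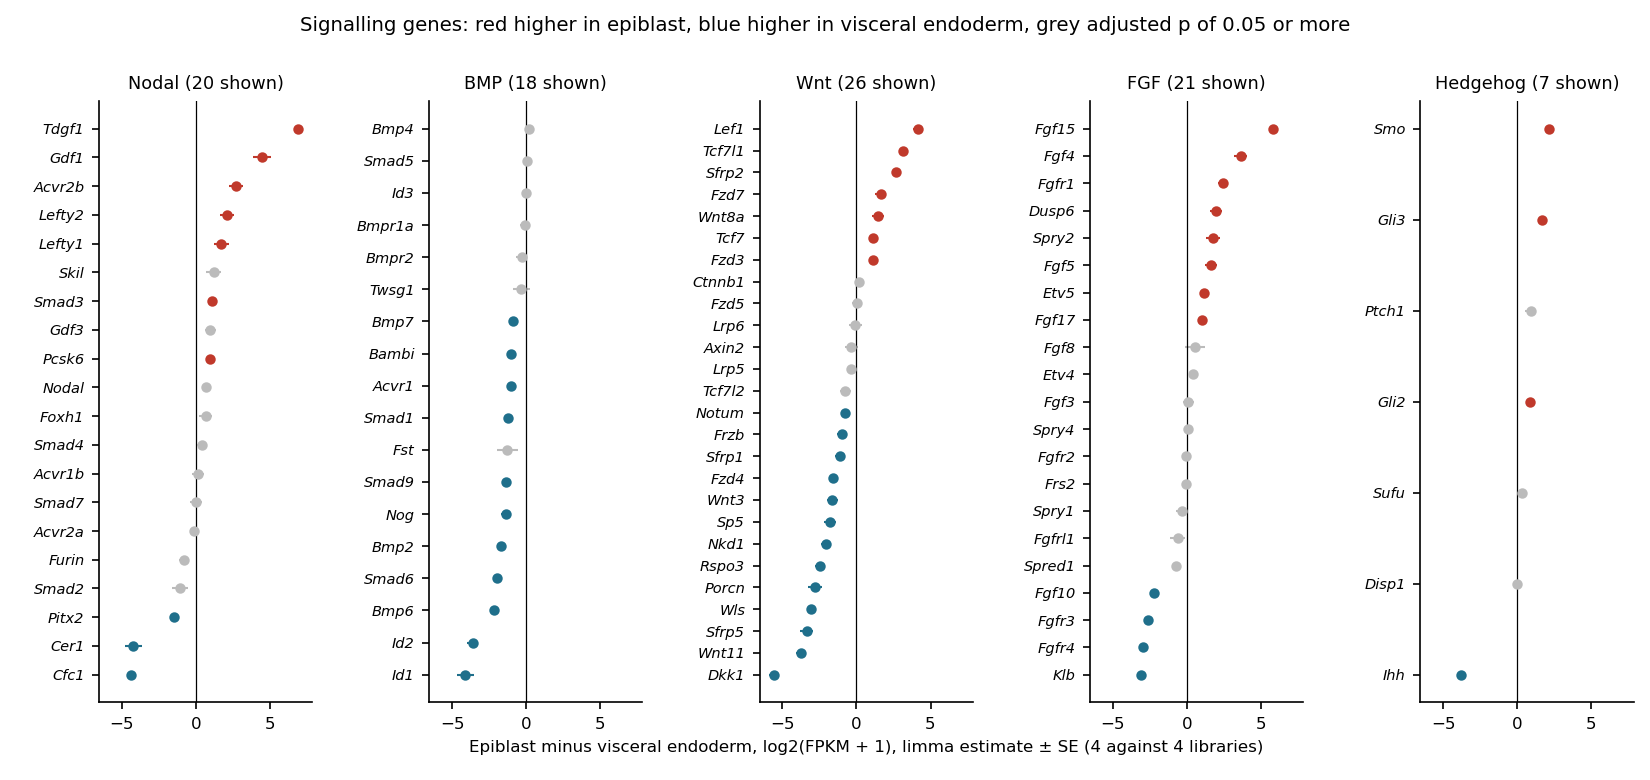
Difference between epiblast and visceral endoderm (x axis, log2(FPKM + 1), limma estimate with standard error, 4 against 4 libraries) for tested genes of 5 signalling pathways, in red where called higher in epiblast, blue where called higher in visceral endoderm and grey where not called. No BMP gene is red, and the ligand Ihh lies opposite to Smo, Gli2 and Gli3.

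Markers of regions within the lineages did not all follow the lineage. Of 8 anterior visceral endoderm markers, 5 were higher in visceral endoderm (Dkk1, Cer1, Sfrp5, Lhx1 and Hhex), Otx2 and Lefty1 were higher in epiblast, and Gsc was not called. Of 8 primitive streak markers tested, none was higher in epiblast (1, Fgf8, without epiblast knockout replicate 2) and 4 were higher in visceral endoderm. Mixl1 had 14.2, 12.5, 34.5 and 23.5 FPKM there and 0.882, 9.18, 1.5 and 0.235 FPKM in epiblast (-2.89, adjusted p 0.00359), and Evx1 had 2.47, 3.4, 5.86 and 7.49 FPKM against 0, 0.236, 1.19 and 0.0187 FPKM (-2.08, adjusted p 3.44e-04). The streak marker T reached at most 2.22 FPKM, in epiblast control replicate 2, and that library also held the highest epiblast level of Mixl1 and the only level of Mesp1 above 0.04 FPKM (1.71 FPKM). Eomes, at 12.5, 15.4, 15.3 and 6.7 FPKM and 9.44, 10.2, 22.7 and 16.8 FPKM, was not called.

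Of 14 DNA methylation genes tested, 6 were higher in epiblast, beside 22.2% of all genes, and none in visceral endoderm (1 without epiblast control replicate 2). Dnmt3a had 69.8, 72.9, 71.6 and 206 FPKM in epiblast, knockout replicate 2 being the high library, and 8.77, 9.11, 16.9 and 10.4 FPKM in visceral endoderm (2.98 ± 0.32 (SE), adjusted p 5.95e-05). The de novo methyltransferase Dnmt3b had 589, 277, 632 and 479 FPKM against 61.1, 93.2, 72.8 and 90.7 FPKM (2.58 ± 0.28 (SE), adjusted p 6.56e-05), and their cofactor Dnmt3l had 6.24, 7.12, 21.6 and 15.5 FPKM against 0.201, 0.348, 4.62 and 0.843 FPKM (2.59 ± 0.34 (SE), adjusted p 2.27e-04). The maintenance enzyme Dnmt1 was not called, with 19.6, 12.6, 46.5 and 16.3 FPKM and 10, 18.2, 13.2 and 15.8 FPKM, while its partner Uhrf1 differed by 1.20, adjusted p 0.00312. Tet1, which oxidises methylcytosine, averaged 14.6 ± 4.79 FPKM in epiblast and 4.91 ± 0.867 FPKM in visceral endoderm (1.36, adjusted p 0.00377).

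Polycomb complexes, which the H2A deubiquitinase complex of Bap1 opposes, were called at shares near those over all genes. Of 35 genes tested of 39, 9 were higher in epiblast, 4 in visceral endoderm and 22 were not called, which is 25.7% and 11.4% beside 22.2% and 17.4% of all genes tested. Phc1 had 61.1, 26.3, 64.1 and 67.8 FPKM in epiblast and 1.26, 1.85, 1.06 and 1.67 FPKM in visceral endoderm (4.43 ± 0.32 (SE), adjusted p 3.81e-06), while Phc2 averaged 7.77 ± 1.25 FPKM in epiblast and 9.92 ± 3.39 FPKM in visceral endoderm and was not called. Pcgf5 had 133, 92.3, 141 and 73.4 FPKM in visceral endoderm and 4.35, 5.76, 5.51 and 16.1 FPKM in epiblast (-3.75 ± 0.37 (SE), adjusted p 3.17e-05), and Bmi1, or Pcgf4, had 4.6, 10.7, 9.66 and 8.78 FPKM against 0.428, 1.2, 0.451 and 1.74 FPKM (-2.27, adjusted p 3.77e-04). Pcgf2 was the paralogue higher in epiblast (1.25, adjusted p 0.014). Cbx2 and Cbx7 were higher in epiblast (2.19 and 1.11) and Cbx8 in visceral endoderm (-1.25). The catalytic core was closer, with Ezh2 averaging 58 ± 8.48 FPKM in epiblast and 34.7 ± 9.15 FPKM in visceral endoderm (0.76, adjusted p 0.0255), and Eed, Suz12, Rnf2 and Ring1 not called. Bap1 was not called (0.38, adjusted p 0.247), while its partner Asxl1 was higher in epiblast (1.46, adjusted p 0.00461).

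Imprinted genes were called in both directions. Of 36 tested of 45, 7 were higher in epiblast, 15 in visceral endoderm and 14 were not called. These are 19.4% and 41.7%, beside 22.2% and 17.4% of all genes tested, so the epiblast share was near that of all genes. H19, a non-coding RNA, had 816, 1639.8, 735 and 1308 FPKM in visceral endoderm and 8.26, 1.41, 7.98 and 2.05 FPKM in epiblast (-7.74 ± 0.48 (SE), adjusted p 1.46e-06), and its neighbour Igf2 had 16.9, 50.3, 10.2 and 28.3 FPKM against at most 0.0358 FPKM (-4.54 ± 0.41 (SE), adjusted p 1.64e-05). In both genotypes replicate 2 was the higher visceral endoderm library for H19 and Igf2. Of the 50-base words of Igf2, 61.2% also occur in other annotated genes, so its level is uncertain. The X-linked homeobox gene Rhox5 had 1881, 2129, 1144 and 2197 FPKM in visceral endoderm and 6.51, 4.95, 4.54 and 39.3 FPKM in epiblast, knockout replicate 2 being the high epiblast library (-7.48 ± 0.56 (SE), adjusted p 5.05e-06). Peg10 and Sgce, neighbours on chromosome 6, were both higher in visceral endoderm (-3.86 and -3.66). Snrpn, Ndn and Magel2, of 1 imprinted cluster on chromosome 7, were higher in epiblast. Snrpn had 445, 878, 252 and 639.7 FPKM in epiblast and 6.55, 5.2, 13.3 and 4.93 FPKM in visceral endoderm, Ndn averaged 5.71 ± 2.03 FPKM in epiblast and 0.189 ± 0.0511 FPKM in visceral endoderm (2.45, adjusted p 6.36e-05), and Magel2 differed by 1.66, adjusted p 6.83e-04. The transcripts Meg3 and Gnas were not called, Meg3 having 125, 55, 301 and 43.4 FPKM in epiblast and 129.6, 184, 94.5 and 129.7 FPKM in visceral endoderm. The values do not tell which parental allele was expressed.

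Of 36 replication genes, 16 (44.4%) were higher in epiblast and none in visceral endoderm, beside 22.2% and 17.4% of all genes tested. Their median difference was 0.74 against 0.21 over all genes. The number higher in epiblast was 11 to 18 on leaving out 1 library, 10 with no filter on low values, 9 with the control libraries alone and 3 with the knockout libraries alone. Mcm2 to Mcm7, the subunits of the replicative helicase, were each among them, Mcm2 having 89.2, 85.6, 94.8 and 166 FPKM in epiblast and 30.2, 37.8, 34.5 and 35.5 FPKM in visceral endoderm (1.58 ± 0.24 (SE), adjusted p 5.74e-04). Pola1, a subunit of the priming polymerase, averaged 11 ± 1.32 FPKM in epiblast and 3.08 ± 0.818 FPKM in visceral endoderm (1.58, adjusted p 7.77e-04). Pcna had 232, 338, 188 and 376 FPKM and 196, 169, 219 and 129.9 FPKM and was not called. Of 30 mitotic genes, 4 were higher in epiblast (Bub1b, Plk1, Kif20a and Cdca8), 1 in visceral endoderm (Birc5, whose call was lost on leaving out any of 7 of the 8 libraries) and 25 were not called. These are 13.3% and 3.33% of the list, below the 22.2% and 17.4% of all genes tested. The number higher in epiblast was 2 without epiblast control replicate 2 or visceral endoderm knockout replicate 2 and 8 without epiblast knockout replicate 1, and the difference between the replication and mitosis lists was not tested. Among cell cycle regulators, Ccnd1 had 46.5, 43.1, 57.6 and 24.3 FPKM in epiblast and 0.317, 0.309, 0.84 and 0.182 FPKM in visceral endoderm (4.91 ± 0.31 (SE), adjusted p 1.63e-06), while Ccnd3 had 56.8, 61.9, 49 and 74.1 FPKM and 85.1, 52, 100.2 and 56.8 FPKM and was not called. Ccne1 averaged 223 ± 70.5 FPKM in epiblast and 65 ± 7.47 FPKM in visceral endoderm (1.72, adjusted p 4.07e-04). Of 18 cell cycle regulators tested, 6 (33.3%) were higher in epiblast and none in visceral endoderm, beside 22.2% and 17.4% of all genes. Near the threshold, Rfc2 (adjusted p 0.0472) lay just inside and Cdt1 (adjusted p 0.0525) just outside, at differences of 0.65 and 0.75.

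Glycolytic isozymes and transporters were called in both directions. Of 23 genes, 13 were higher in epiblast, 4 in visceral endoderm and 6 were not called. These are 56.5% and 17.4% of the list, beside 22.2% and 17.4% of all genes tested. The share higher in visceral endoderm was thus that of all genes. Slc16a3, an exporter of lactate, had 80.6, 78.4, 101 and 154 FPKM in epiblast and 9.9, 4.99, 11 and 4.13 FPKM in visceral endoderm (3.66 ± 0.34 (SE), adjusted p 1.98e-05), and its relative Slc16a1 had the opposite order, with 239, 428, 423 and 384 FPKM in visceral endoderm and 25.8, 21.6, 21.8 and 43.1 FPKM in epiblast (-3.69 ± 0.27 (SE), adjusted p 4.77e-06). The glucose transporter Slc2a3 had 198, 571, 372 and 447 FPKM in visceral endoderm and 45.3, 29.7, 31.7 and 35.1 FPKM in epiblast (-3.37 ± 0.33 (SE), adjusted p 2.69e-05), while Slc2a1 averaged 159.8 ± 43.7 FPKM in epiblast and 75.9 ± 6.72 FPKM in visceral endoderm (1.02, adjusted p 0.00637). The liver isozyme Pklr was higher in visceral endoderm (-1.75, adjusted p 7.37e-04). The common isozymes Aldoa and Pkm were higher in epiblast by 0.84 and 1.30, and Eno3 by 3.12, adjusted p 8.85e-06. Without epiblast control replicate 1, 8 genes in place of 13 were higher in epiblast. Eno1 and Tpi1 were not called, Eno1 having 1404, 2225, 895 and 2586 FPKM in epiblast and 1535, 469, 1580.5 and 779.7 FPKM in visceral endoderm.

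Basement membrane components were mostly visceral endoderm transcripts and several of their receptors epiblast transcripts. Of 21 tested, 5 were higher in epiblast, 11 in visceral endoderm and 5 were not called. These are 23.8% and 52.4%, beside 22.2% and 17.4% of all genes tested, so the epiblast share was near that of all genes. Col4a2 had 23.8, 34.2, 31.4 and 40.3 FPKM in visceral endoderm and 0.977, 0.38, 0.63 and 0.516 FPKM in epiblast (-4.35 ± 0.26 (SE), adjusted p 1.11e-06), and the laminin chain Lama1 had 5.17, 6.86, 20.3 and 9.49 FPKM, highest in knockout replicate 1, against 0.203, 0.169, 0.331 and 0.176 FPKM (-3.07 ± 0.32 (SE), adjusted p 4.41e-05). Sparc, a collagen-binding protein, averaged 39.7 ± 6.65 FPKM in epiblast and 495 ± 83.2 FPKM in visceral endoderm (-3.61, adjusted p 9.30e-07). The laminin receptor subunit Itga6 had 4.83, 5.15, 7.68 and 5.71 FPKM in epiblast against 0.134, 0.375, 0.219 and 0.334 FPKM (2.42 ± 0.23 (SE), adjusted p 2.26e-05), and Itgb5 and Bcam were higher there as well (2.84 and 2.27). The fibronectin receptor subunit Itga5 was higher in visceral endoderm (-1.69, adjusted p 6.50e-04), and the shared subunit Itgb1 had 17.3, 19, 18.8 and 22.5 FPKM and 19.3, 34.5, 37.9 and 34.3 FPKM and was not called.

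Junction and keratin genes showed epithelial differences between the lineages. Of 26 tested, 4 were higher in epiblast, 10 in visceral endoderm and 12 were not called. These are 15.4% and 38.5%, beside 22.2% and 17.4% of all genes tested. Krt8 had 217, 137, 254 and 186 FPKM in visceral endoderm and 11.6, 8.79, 7.29 and 9.6 FPKM in epiblast (-4.26 ± 0.26 (SE), adjusted p 1.21e-06), and its partner Krt18 averaged 113 ± 17.4 FPKM in epiblast and 743 ± 209 FPKM in visceral endoderm (-2.68, adjusted p 2.55e-05). The gap junction gene Gjb2 had 15.4, 13.3, 21 and 21.4 FPKM in visceral endoderm and 0, 0.234, 0.205 and 0.103 FPKM in epiblast (-4.03 ± 0.24 (SE), adjusted p 1.11e-06). Claudins differed in direction. Cldn4 had 8.83, 8.18, 11 and 13.2 FPKM in epiblast and is listed at 0 in 3 visceral endoderm libraries (3.43 ± 0.24 (SE), adjusted p 2.93e-06), while Cldn6 averaged 192 ± 58 FPKM in epiblast and 678 ± 131 FPKM in visceral endoderm (-1.84, adjusted p 3.05e-04). E-cadherin, Cdh1, had 66.2, 22.6, 84 and 54.4 FPKM and 13.1, 41.2, 19.8 and 33.8 FPKM and was not called (adjusted p 0.0837).

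The most abundant transcripts were partly shared. In epiblast the highest means included those of Mif, Rps14, Gm29216, Ftl1 and Rpl38, and in visceral endoderm to Fth1, Ftl1, Apoc2, Gm29216, Apoa1 and Apoe. Gm29216, a pseudogene model on chromosome 1, had 3110, 1526, 5379 and 2720.3 FPKM in epiblast and 410.4, 11715, 2520.2 and 9945 FPKM in visceral endoderm and was not called. Of its 50-base words, 97.1% occur in other genes, most of them in mt-Co1, while all 37 mitochondrial genes are listed at 0 in all 11 libraries of the day. The ferritin light chain Ftl1 averaged 3163 ± 167 FPKM in epiblast and 7124 ± 1444 FPKM in visceral endoderm (-1.15, adjusted p 0.00313), and 50.9% of its words are shared with copies.

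The lineage difference was then examined within each maternal genotype. In the control libraries 1264 genes (9.45%) were higher in epiblast and 1296 (9.69%) in visceral endoderm, and in the maternal knockout libraries 1567 (11.7%) and 1399 (10.5%). The test of whether the lineage difference itself differed with the genotype called 1 gene of 13376 (0.00748%), and 180 had an unadjusted p under 0.05. That gene was Gm44805, on chromosome 7, positions 19671584 to 19681423, which was named after its values were seen. It had 1670.4 and 444 FPKM in the control visceral endoderm libraries, 2.43 and 2.89 FPKM in the knockout ones, and 0, 0, 0.257 and 0.673 FPKM in epiblast. The difference, epiblast minus visceral endoderm, was 8.42 ± 0.81 (SE) higher in knockout than in control (limma, adjusted p 0.034). Its exons lie wholly under those of other gene models, and 87.9% of its words occur in other genes, mainly Apoc2. Apoc2 had 3303, 11996, 3466 and 5413 FPKM in the same visceral endoderm libraries, with overlapping genotypes, and whether reads of Apoc2 set the level of Gm44805 was not tested. The contrast called 0 genes larger in knockout after quantile normalization, with no filter on low values, with the replicate number as a block, or without either epiblast control replicate, epiblast knockout replicate 1 or visceral endoderm knockout replicate 1.

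The next genes by p did not pass. Foxd3, a forkhead factor of the epiblast, is listed at 0 in both control epiblast libraries and all visceral endoderm libraries and had 25.6 and 8.16 FPKM in knockout epiblast (limma, adjusted p 0.922). Bola1, a mitochondrial protein gene, had 203, 132, 27.5 and 94.5 FPKM in epiblast and 14.1, 13.2, 91.3 and 135 FPKM in visceral endoderm (adjusted p 0.922). Cyp26a1 also missed the threshold (adjusted p 0.976). A p above the threshold does not show that the lineage difference was the same in both genotypes, and each group held 2 libraries. Several visceral endoderm transcripts had their highest epiblast levels in the control libraries, among them Spink1, Apoa1, Apom, Afp and Cer1, each without an interaction call. They were picked after their values were seen, and others, such as Amn and Cited1, were highest in epiblast knockout replicate 1. The visceral endoderm markers together were highest in that library too, at 1.34% of their visceral endoderm level. The control libraries had 0.879 and 0.947%, and knockout replicate 2 had 0.669%.

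**Figure D5:**
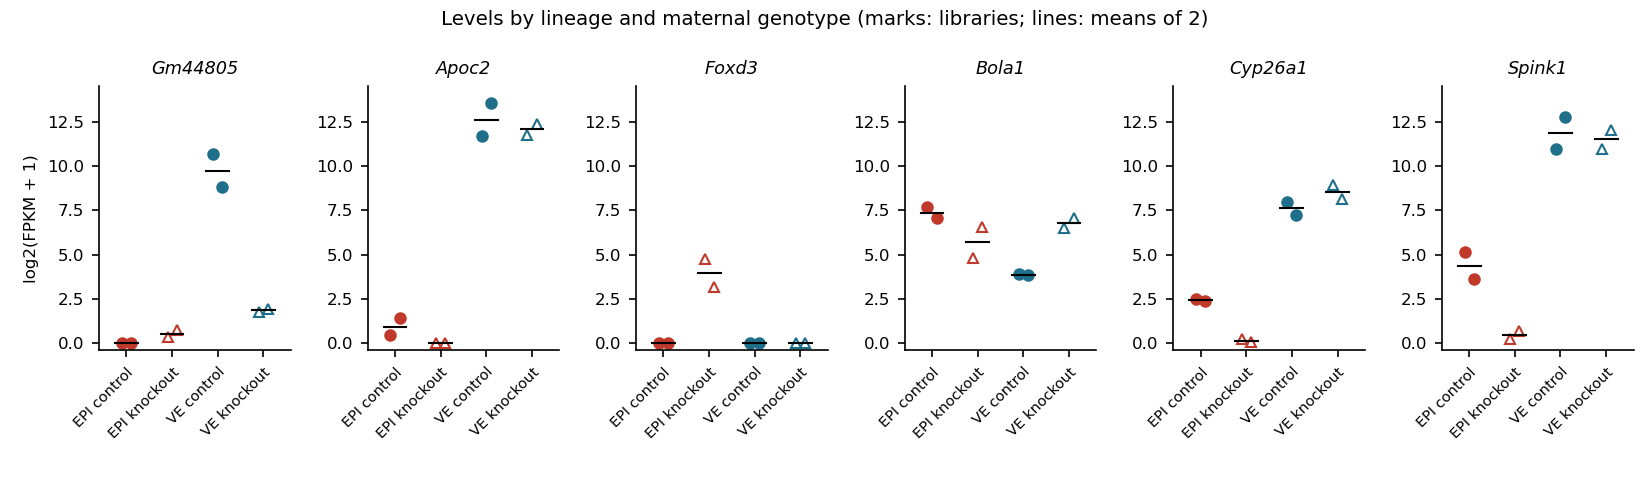
Levels of 6 genes, as log2(FPKM + 1), in the 2 libraries of each lineage and maternal genotype, with a line at the mean of the 2. The visceral endoderm marks of Gm44805 part by genotype while those of the overlapping Apoc2 do not, and Foxd3 is above 0 in the knockout epiblast libraries alone.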

How the data were processed

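RNA of epiblast, visceral endoderm and extraembryonic ectoderm at embryonic day 6.5 was converted to poly(A)-primed SMART-Seq cDNA and made into Nextera XT libraries, per the labels' protocols. The authors deposited 1 table of FPKM values for these 11 libraries, of 55401 genes. Trim Galore 0.6.6, STAR 2.7.9, StringTie 2.1.7 and the mm10 build are named in the submitters' processing notes, which give them no role or order. The annotation, the filters and the strand setting are not given in the sources used here, so antisense and overlapping genes may share reads, and poly(A) priming leaves out transcripts without a tail. Exactly 1 deposited value was below 0 and was set to 0. Gene coordinates come from the mouse GRCm38 annotation, in which 55141 of the IDs matched.

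Libraries were grouped by their labels, 2 to each lineage and genotype. The deposited FPKM values were tested as log2(FPKM + 1) with limma 3.58.1 in R 4.3.3 (empirical Bayes with trend, two-sided, Benjamini-Hochberg adjustment), for genes that reached 1 FPKM in 2 or more of 8 libraries. The model held lineage and genotype as terms without a replicate block, and contrasts of the 4 group means gave the difference within each genotype and its interaction. The fit was tested on simulated data. Members and lists were chosen with earlier results of these data known. In each list the 4 largest called differences per direction and the 2 most abundant genes that were not called were to be named, with the 12 largest differences per direction over all genes, among genes without overlap and with a mean of at least 10 FPKM; other list members in the text were picked after their values were seen. Some genes are not reported here. Alternatives changed the pseudocount, filter, scaling, moderation, limit on the difference, block and libraries used.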

Additional observations from a re-analysis of the deposited data

Results flagged for a closer look

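Among 270 sets of 4 libraries of a lineage that were looked at, 9 met 2 conditions. A library lay farther from the others than Dixon's 95% limit for 4 values, and the set spanned at least 1 on the log2 scale. Chance passes the limit alone in about 1 of 20 sets, a rate that does not apply to both conditions together. Of the 9, 6 were epiblast knockout replicate 2. That library was low for Fgf8 at 6.74 FPKM, the other epiblast libraries having 49.3, 56.6 and 61.1 FPKM. It was high for Dnmt3a at 206 FPKM, for the squalene epoxidase Sqle at 67.3 FPKM, for Rhox5 at 39.3 FPKM, for the signal transducer Smad4 at 36.6 FPKM and for the FGF feedback inhibitor Spry1 at 18.2 FPKM. In the other epiblast libraries Smad4 had 13.3, 15.1 and 14.9 FPKM, and Spry1 had 7.37, 8.42 and 7.58 FPKM. Epiblast control replicate 1 was low for Id2 at 5.95 FPKM, and epiblast control replicate 2 was low for Phc1 at 26.3 FPKM. Visceral endoderm knockout replicate 1 was high for the globin gene Hba-a1 at 16.6 FPKM, against at most 0.2 FPKM in the other visceral endoderm libraries. Without that library Hba-a1 was called higher in epiblast, by 1.27 (limma, adjusted p 0.0092).

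The lineage difference of Gm44805 differed between the maternal genotypes, by 8.42 (limma interaction, adjusted p 0.034), through the 2 control visceral endoderm libraries, which lay above all the others.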

How the results depend on the processing

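The main counts of 2968 genes higher in epiblast and 2332 higher in visceral endoderm became 1431 and 1433 where a mean of 5 FPKM was required, which tests fewer genes. They became 1382 and 1323 with the 4 control libraries alone, and 1171 and 1122 with the 4 knockout libraries alone. Leaving out 1 library gave 2215 to 3036 and 1939 to 2344. No gene called in the main processing and in an alternative changed sign between them. Within the control genotype the 1264 and 1296 genes became 560 and 719 with no filter, 574 and 796 with the mean of 5 FPKM, and 504 to 1634 and 690 to 1508 on leaving out 1 library. Within the knockout genotype the 1567 and 1399 genes became 779 and 813, 671 and 905, and 481 to 1868 and 699 to 1461. A lone library of a group was assumed to vary like the other groups. For the interaction, the 1 gene larger in knockout became 0 with no filter and after quantile normalization, and 0 to 2 on leaving out 1 library, and the 0 genes smaller in knockout became 0 to 1. The cause of these changes was not tested.

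Whether replicate numbers pair the libraries is not known from the labels. Within a genotype, the deviations from the group mean of epiblast and visceral endoderm libraries with 1 number correlated at -0.30 in control and -0.39 in knockout, while Y-linked transcripts were present or absent in both lineages together for each number of a genotype. With the replicate block, 2513 and 2041 genes were called, 629 and 741 within control, 829 and 844 within knockout, and 0 for the interaction. With the numbers crossed, added after seeing the data, 3794 and 2723 were called, 1847 and 1686 within control, 2276 and 1859 within knockout, and 2 for the interaction.

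Over single genes, 4392 values stayed on the same side of the threshold, 124 lost a call and 50 gained one. Among values with a call in the main processing or the alternative, 0 changed sign. Sign changes of genes called in neither were not counted. Of 221 gene results, 159 kept their side of the threshold throughout. Depth is unknown, so values near 0 carry no counting limit.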

Other observations

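Gene families taken by their symbols, after the list results were known, gave further values. Of 205 Slc genes tested, 87 were higher in visceral endoderm and 39 in epiblast, beside 17.4% and 22.2% of all genes, with a median difference of -0.50. The cystine transporter subunit Slc7a9 (-5.66), the zinc transporter Slc39a5 (-5.66), the sulfate transporter Slc13a4 (-5.43) and the glucose transporter Slc2a2 (-4.07) were among the largest differences on the visceral endoderm side. Slc2a2 averaged 0.00347 ± 0.00445 FPKM in epiblast and 18.1 ± 12.3 FPKM in visceral endoderm (SD, n = 4 each). The glutamine transporters Slc38a1 (3.02) and Slc1a5 (2.71) followed Slc7a3 and Slc16a3 on the epiblast side.

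Of 312 Zfp zinc finger genes, 89 were higher in epiblast and 18 in visceral endoderm, with a median difference of 0.47 against 0.21 over all genes. The shares were 28.5% and 5.77%, beside 22.2% and 17.4% of all genes. Of 47 histone genes, 22 (46.8%) were higher in epiblast and 1 (2.13%) in visceral endoderm (median 0.90). Their level in poly(A)-primed libraries is that of tailed transcripts. Of 96 ribosomal protein genes 7 were higher in epiblast, 7.29% beside 22.2% of all genes, and 0 in visceral endoderm (median 0.48). Of 49 proteasome genes 12 were higher in epiblast, 24.5% and so near the share of all genes, and 0 in visceral endoderm (median 0.30). Rhox6 and Rhox9, X-linked homeobox neighbours of Rhox5, were higher in visceral endoderm as well. Rhox6 had 82.1, 182, 70.7 and 149.6 FPKM there and 0.0472, 0.117, 0 and 0.0649 FPKM in epiblast (-6.74 ± 0.32 (SE), adjusted p 3.36e-07), and Rhox9 had 15.6, 36.1, 19.6 and 17.7 FPKM against 0, 0, 0 and 0.0121 FPKM (-4.46 ± 0.29 (SE), adjusted p 1.89e-06). EXE had 24.6, 23.7 and 18.9 FPKM of Rhox6 and 16.4, 9.07 and 9.46 FPKM of Rhox9. Near-identical copies make the levels of Rhox, histone and ribosomal protein genes uncertain.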
